A study of Saccharomyces cerevisiae with 12 samples.

Results

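The genes within 10 kb of chromosome ends in budding yeast, Saccharomyces cerevisiae, were examined in RNA sequencing libraries of tra1Q3 and TRA1 cells before and after chronological aging. A gene was included when its coding sequence ended at or before base 10000 of its chromosome, or started at most 10000 bases before the last coding end that the count table gives for that chromosome. This rule used position only. It found 166 of the 6691 genes in the table, of which 92 reached 10 counts in 3 or more of the 12 libraries and are called measured below. The other 74 fell below that limit, and 27 of them had no count in any library. Most of these 27, such as YHL050W-A and YEL077W-A, lie wholly within another coding sequence. Their lack of counts does not show that RNA was absent.

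Both strains are W303A derivatives of mating type a (MATa) with the alleles ade2-1, can1-100 and trp1-1 and also leu2-3, his3-11 and ura3-1. The study gives each an integrated FLAG-tagged copy of TRA1 or tra1Q3 with a HIS3 marker, and both carry the plasmid YCplac111-DED1pr-YHR100. Tra1 is the activator-binding subunit of the SAGA and NuA4 coactivator complexes, and tra1Q3 has arginine to glutamine changes at or near the ATP-binding cleft of its PI3K domain. The 4 groups were tra1Q3 cells at day 0 and day 3 and TRA1 cells at day 0 and day 3, with 3 libraries each. Those of tra1Q3 cells at day 3 are numbered 2, 3 and 4. The study's strain table has 2 W303 strains with the same genotype text, both TRA1, and names no tra1Q3 allele in this background. The only tra1Q3 strain it lists is of mating type alpha and is not given as a W303 derivative. The genotype of each library is therefore taken from its label. Whether a genotype was more than 1 clone is not given, and the genotype and any other difference between the strains cannot be told apart. The labels name mid-log growth in synthetic complete medium and the MasterPure RNA kit. The paper instead describes overnight growth, dilution into medium without leucine, samples at day 0 and day 3 and the RiboPure kit.

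A yeast chromosome end carries telomeric repeats, an X element and at many ends a Y' element, a long repeat that encodes helicases of the YRF1 family. Inward of these lie families found at many ends, such as the COS genes, whose membrane proteins help sort cell-surface proteins to the vacuole, and the seripauperins (PAU), cell wall proteins known for anaerobic induction. Genes for rarely used transporters and enzymes also gather there. Genes near the ends can be silenced by the SIR proteins, and histone H4 acetylation, which NuA4 carries out, is low in silenced chromatin.

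By position in the RefSeq annotation and by gene role, 77 members (35 measured) lay in annotated telomeric regions, of which there are 32, 17 with a Y' element. Outside them were 10 COS genes (9 measured), 14 seripauperins (5), 10 transporter genes (9), 18 enzyme genes (14) and 2 regulators (2). A further 18 had no known role (12 measured), and 17 had no RefSeq gene (6 measured).

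Repeated sequence limits what could be counted, because only uniquely mapped reads were kept. The median share of a gene's 100-base windows that occur once in the genome was 57.2% for measured members and 100% for genes more than 30 kb from an end. In measured members of annotated telomeric regions it was 9.52%, against 92.2% in measured members outside them. The genome used for mapping was that of S288C rather than W303, so reads from an end that differs in W303 may be placed at another end. A difference between 2 genes that share sequence is therefore less certain than the value of each.

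A stretch of YFL066C shows how little separates the Y' reading frames. It is the middle one of the unique 100-base windows of that gene, which lies at the left end of chromosome VI and is among the 4 members with the largest fold changes at day 0. It has 18 matches elsewhere in R64 within 20 differences, in 3 versions that each differ by 1 base. The 4 places shown are examples that cover all 3 versions, with the differing base in capitals.

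YFL066C (chrVI:2069-2168, minus strand): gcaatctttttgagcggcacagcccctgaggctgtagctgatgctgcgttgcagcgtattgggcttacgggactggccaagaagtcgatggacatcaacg
YBL111C (chrII:3233-3332, minus strand): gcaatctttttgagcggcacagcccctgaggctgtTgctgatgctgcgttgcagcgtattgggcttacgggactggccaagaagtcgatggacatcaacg
YEL077C (chrV:2879-2978, minus strand): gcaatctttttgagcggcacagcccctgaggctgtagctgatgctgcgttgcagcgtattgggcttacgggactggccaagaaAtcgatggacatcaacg
YIL177C (chrIX:3203-3302, minus strand): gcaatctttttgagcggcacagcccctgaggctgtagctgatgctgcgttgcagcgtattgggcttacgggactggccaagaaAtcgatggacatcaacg
YDR545W (chrIV:1529165-1529264, plus strand): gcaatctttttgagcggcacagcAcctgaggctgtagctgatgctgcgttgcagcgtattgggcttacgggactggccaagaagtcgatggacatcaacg

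The version in YFL066C occurred once in the genome, that of YEL077C and YIL177C 3 times, that of YBL111C 3 times and that of YDR545W 12 times. Within this stretch a single base tells YFL066C from each of the 4 others.

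The COS genes are a second such family, shown because most of them moved together at day 3. The first 60 bases of the coding sequence were identical in COS1, COS2, COS3 and COS5, and COS7 and COS8 shared another version. Capitals mark bases that differ from the commonest base at that place among the 9 measured genes.

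COS1 (chrXIV:8330-8389, plus strand): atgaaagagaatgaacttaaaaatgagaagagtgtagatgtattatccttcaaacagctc
COS4 (chrVI:6426-6485, plus strand): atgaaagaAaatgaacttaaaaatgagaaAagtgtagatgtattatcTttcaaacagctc
COS6 (chrVII:1082670-1082729, minus strand): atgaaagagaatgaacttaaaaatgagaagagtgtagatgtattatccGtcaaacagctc
COS8 (chrVIII:6401-6460, plus strand): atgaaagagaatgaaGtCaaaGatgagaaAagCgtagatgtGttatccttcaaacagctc
COS10 (chrXIV:779916-779975, plus strand): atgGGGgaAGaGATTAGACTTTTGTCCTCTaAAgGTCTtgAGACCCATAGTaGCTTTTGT

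COS10 differed at 49 of the 60 bases. The bases were compared place by place without gaps, so this count does not measure how far COS10 has diverged. Unique windows made up 100% of COS10, 99.8% of COS8 and 84.5% of COS6, as against 0% in COS2 and COS3.

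Library totals ran from 20662125 to 28079682 counts, and the members held 0.144% to 0.237% of them. The TRA1 transcript had a log2 fold change (tra1Q3 over TRA1) of 0.54 at day 0 and 1.74 at day 3, and since counts per gene do not read the altered bases, it does not check the labels. In these strains labelled MATa, 4 of 6 genes specific to mating type a and all 4 specific to type alpha were called higher in tra1Q3 cells at day 0, among them SAG1, the alpha agglutinin, with a log2 fold change of 4.48. At day 3 it was 6 of 6 and 3 of 4. The part of these differences in the results on chromosome-end genes was not tested. HMLALPHA1 of the silent cassette had 0 counts in every library, but its sequence is repeated at the MAT locus of the reference, and only unique matches were kept. Replicates 2 and 3 of tra1Q3 cells at day 0 held more SIP18 and MLS1, genes of aged TRA1 cells, than the other day 0 libraries, and replicate 2 of aged TRA1 cells stood apart from its group. Results that these libraries change are given with and without them.

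At day 0, reading frames in annotated telomeric regions stood out in tra1Q3 cells. Of 79 members tested, 21 were called, at a Benjamini-Hochberg adjusted p of 0.05 or less and a fold change over 2, that is a log2 fold change (tra1Q3 over TRA1) above 1 or below -1. Of these, 17 were higher and 4 lower in tra1Q3 cells, whereas 6.07% of all genes tested were called, 3.31% of them higher and 2.76% lower. Within the telomeric regions, 13 of 28 tested members were higher and 0 lower (edgeR, with 0 lower also at an unadjusted p under 0.05 and with DESeq2), and 27 of 28 had a positive value. Their median log2 fold change was 0.95, beside 0.0078 for all genes tested. Libraries of the genotypes did not overlap in 59 of the 79 members, beside 71.5% of all genes tested. Outside the telomeric regions 4 of 51 tested members were higher and 4 lower. Counts per group sum over all cells, so that more RNA in each cell and a larger share of cells with the RNA cannot be told apart, nor can more RNA per Y' copy and more copies in 1 strain.

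Low counts bear on these numbers. Of the 28 tested genes in telomeric regions, 2 reached 10 counts in tra1Q3 libraries only, and both were among the called ones. Among the called frames, only YBL109W and YLR466C-B had at least 80% unique windows, and both had low counts. Their day 0 means were 16.5 and 26.6 normalized counts in tra1Q3 libraries and 6.49 and 9.42 in TRA1 libraries. Of the 18 with a mean of at least 50 counts over the 6 libraries, 8 were higher and 0 lower, and 17 were positive. Without replicates 2 and 3 of tra1Q3 cells, which leaves 1 library whose spread is taken from the TRA1 libraries, 12 of 25 tested genes were higher.

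The 4 largest log2 fold changes among called members at day 0 were at the left end of chromosome VI. These 4 genes lie in 1 annotated telomeric region and are 4 of the 13 frames called higher, so they do not stand for separate ends. All 4 measured reading frames of the outer 4 kb of that end, none of which has a gene name beyond its systematic one, were higher in tra1Q3 cells on both days. YFL064C (chrVI:3322-3846, minus strand) had 168, 167 and 141 normalized counts in tra1Q3 libraries at day 0, against 21.3, 14.5 and 23.7 in TRA1 libraries. At day 3 it had 70.4, 93.2 and 80 in tra1Q3 libraries, against 9.24, 14.5 and 7.55 in TRA1 libraries. The genotypes did not overlap on either day. Genes named for large changes were picked among called members without overlap. For them, lack of overlap is no further support, here or below. The log2 fold change was 2.99 ± 0.19 (SE, n = 3 libraries per group) at day 0 and 3.05 ± 0.27 at day 3, with edgeR adjusted p of 1.39e-10 and 5.76e-05.

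YFL065C (chrVI:3030-3338, minus strand), which shares 17 bases with YFL064C, had 113, 107 and 108 normalized counts in tra1Q3 libraries and 13.5, 12.6 and 21.7 in TRA1 libraries at day 0. YFL066C (chrVI:1437-2615, minus strand), the gene of the stretch above, had 596, 593 and 594 in tra1Q3 libraries and 115, 99.7 and 120.5 in TRA1 libraries. YFL067W (chrVI:836-1363, plus strand), which had the most unique sequence of the 4 (65.3% of windows), had 481, 458 and 541 in tra1Q3 libraries and 98.7, 114 and 77.0 in TRA1 libraries. The 3 genes had day 0 log2 fold changes of 2.77 ± 0.21, 2.41 ± 0.10 and 2.35 ± 0.13 (SE), and all 3 were also called higher at day 3. Per kb of coding sequence, YFL067W had the most normalized counts of the 4 in tra1Q3 cells at day 0, with 935, followed by YFL066C with 504. Only 5.83% of the windows of YFL066C were unique, and the whole coding length was used. These values therefore do not rank the genes by RNA level.

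**Figure D1:**
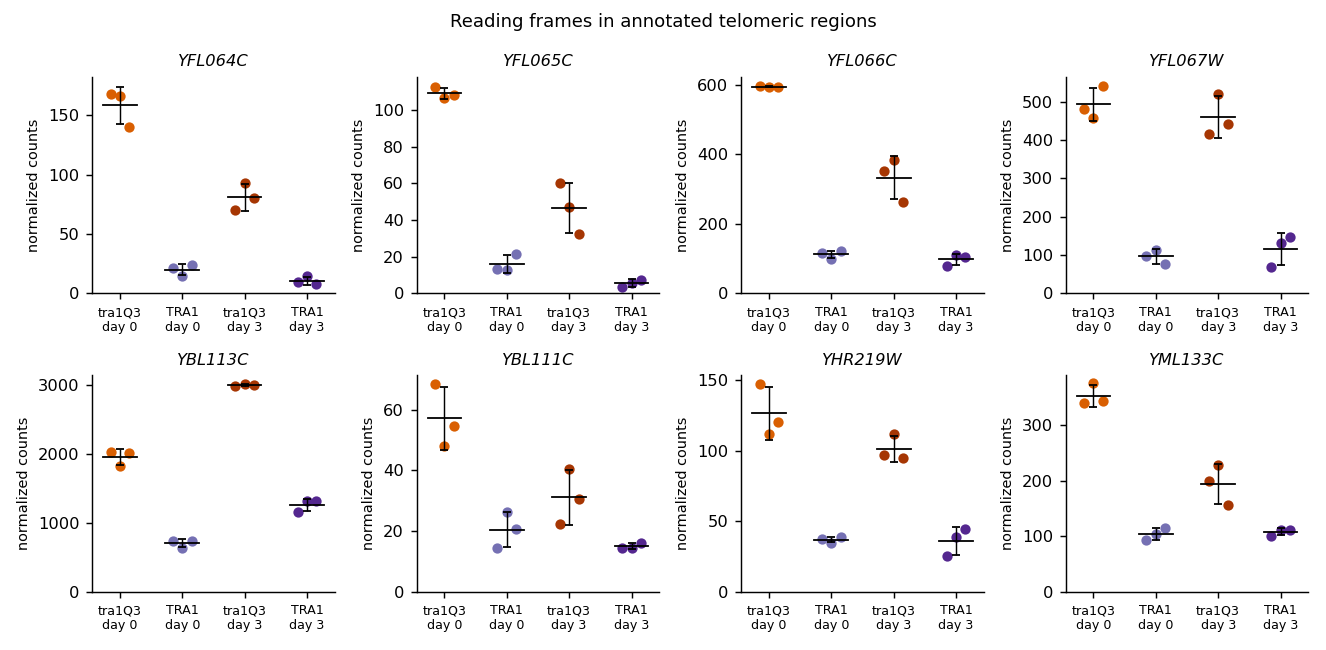
Normalized counts of 8 reading frames in annotated telomeric regions by group, with a point for each library, a line at the mean and bars of 1 SD. Of the 4 genes of chromosome VI in the upper row, YFL067W has 458 to 541 in tra1Q3 libraries and 77.0 to 114 in TRA1 libraries at day 0, and the genotypes do not overlap within a day in any of the 8 panels.

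Other Y' reading frames were higher by smaller factors. YBL113C (chrII:280-2658, minus strand), among those with the most counts, had 2022, 1821 and 2005 normalized counts in tra1Q3 libraries, against 739, 637 and 733 in TRA1 libraries at day 0. At day 3 it had 2982, 3013 and 2989 in tra1Q3 libraries and 1151, 1309 and 1307 in TRA1 libraries. Its log2 fold change was 1.47 ± 0.06 (SE, n = 3) at day 0 and 1.35 ± 0.08 at day 3 (edgeR adjusted p = 3.47e-13 and 1.13e-05).

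YHR219W, at the right end of chromosome VIII, had 147, 112 and 120.5 normalized counts in tra1Q3 libraries and 37.7, 34.9 and 38.5 in TRA1 libraries at day 0. YML133C, at the left end of chromosome XIII, had 341, 376 and 344 in tra1Q3 libraries and 92.9, 105 and 115 in TRA1 libraries. Their log2 fold changes were 1.78 ± 0.17 and 1.76 ± 0.12 (SE). Fewer than 2% of the windows of either gene were unique.

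YEL077C (chrV:264-4097, minus strand), a Y' frame with about as many counts in tra1Q3 libraries as YBL113C, did not reach the size threshold. It had 1976, 2035 and 2070.1 normalized counts in tra1Q3 libraries and 1366, 1298 and 1273 in TRA1 libraries at day 0 (log2 fold change 0.63 ± 0.04, SE). The exception in sign was YLL066C at the left end of chromosome XII, with a log2 fold change of -0.32. The increases were thus unequal among near-identical frames, with the limit given above for reads that could belong to several of them.

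Members outside the telomeric regions were called in both directions at day 0. AAD15 (chrXV:1647-2078, minus strand) encodes a putative aryl-alcohol dehydrogenase. It had 182, 142 and 165 normalized counts in tra1Q3 libraries, against 29, 37.8 and 49.4 in TRA1 libraries, a log2 fold change of 2.08 ± 0.18 (SE, edgeR adjusted p = 1.01e-08). Its first 60 coding bases are shown because they are the same as bases 661 to 720 of AAD3, the other measured member of that family, which had a log2 fold change of 0.26.

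AAD15 (chrXV:2019-2078, minus strand): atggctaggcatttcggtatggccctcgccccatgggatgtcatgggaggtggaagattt

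The windows of AAD15 were 99.1% unique nonetheless. ADH7 (chrIII:309070-310155, plus strand), an NADPH-dependent alcohol dehydrogenase, had 691, 699 and 772 normalized counts in tra1Q3 libraries and 278, 225 and 208 in TRA1 libraries at day 0 (log2 fold change 1.60 ± 0.10, SE).

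The 4 members lower in tra1Q3 cells at day 0 were YER188W, MAL31, GEX2 and YGL258W-A. YER188W, of unknown function, had 92.0, 97.5 and 106 normalized counts in tra1Q3 libraries, against 410.4, 428 and 481 in TRA1 libraries (log2 fold change -2.16 ± 0.11, SE). MAL31, the maltose permease, had 739, 756 and 669 in tra1Q3 libraries and 2418, 2258 and 2440.2 in TRA1 libraries (-1.71 ± 0.05). GEX2, a glutathione exchanger, had 111, 110.4 and 127 in tra1Q3 libraries and 315, 292 and 277 in TRA1 libraries (-1.34 ± 0.12). In each of these 3 the genotypes did not overlap, which the choice of named genes required, and the adjusted p in edgeR was 9.86e-09 or less.

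By distance from the end, the called share and the median were highest among the outermost genes at day 0. There, 11 of 30 tested genes with their inner edge within 5 kb were called, 10 of them higher in tra1Q3 cells. Between 5 and 10 kb, 10 of 49 were called, 7 of them higher. Among genes 10 to 20 kb from an end 15 of 120 were called (9 higher), and at 20 to 30 kb 9 of 139 (1 higher). Beyond 30 kb 316 of 5772 were called (165 higher). The median log2 fold change was 0.48 within 5 kb, 0.34 at 5 to 10 kb, 0.026 at 10 to 20 kb and -0.044 at 20 to 30 kb. The bands within 10 kb hold the telomeric-region frames described above, of which 13 of 28 were higher. Members outside those regions had a median of 0.14, with 4 of 51 higher and 4 lower. Distance was not separated from lying in a telomeric region. At the limit itself, PHO12 (9948 bases) and YLL066C (9836 bases) lay just inside with log2 fold changes of 0.47 and -0.32. YOL163W (10106 bases) and NFT1 (10209 bases) lay just outside with -0.86 and 0.56.

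**Figure D2:**
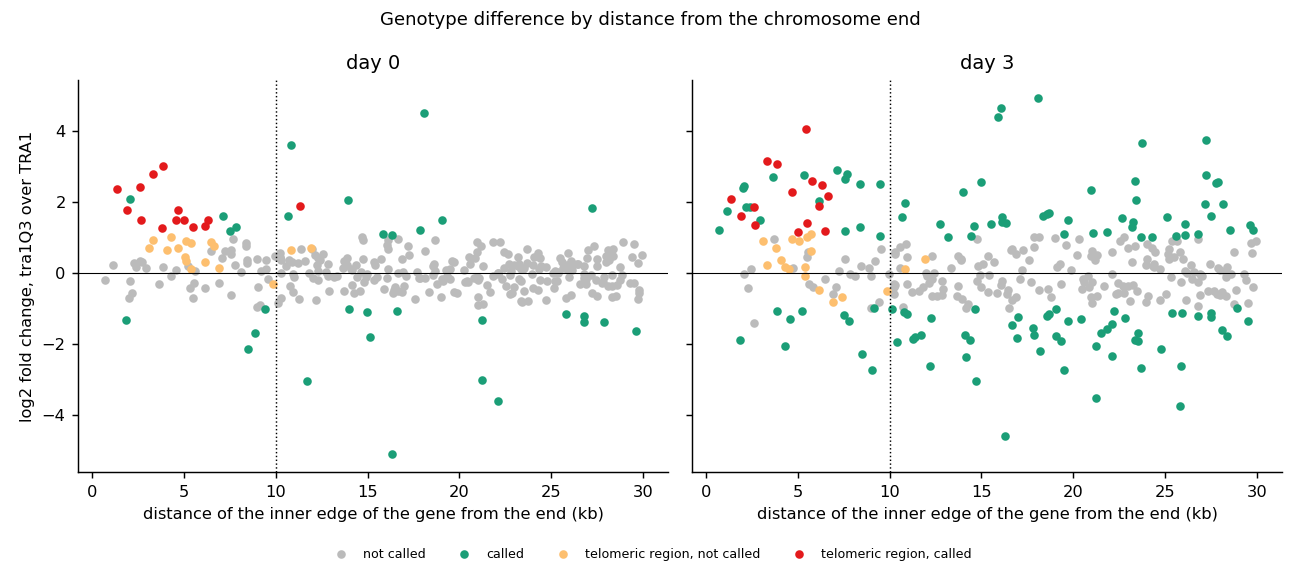
The log2 fold change (tra1Q3 over TRA1) of each tested gene within 30 kb of a chromosome end against the distance of its inner edge from the end in kb, at day 0 (left) and day 3 (right), with the 10 kb limit dotted. Genes in annotated telomeric regions (orange and red) lie above 0 in 27 of 28 cases among the members at day 0.

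At day 3, more members differed between the genotypes, and so did more genes elsewhere. Of 85 tested members 43 were called, 33 higher and 10 lower in tra1Q3 cells, whereas 32% of all genes tested were called, 16.4% higher and 15.6% lower. The genotypes did not overlap in 61 of the 85 members, beside 77.2% of all genes. Within telomeric regions 15 of 32 were higher and 0 lower (edgeR, with 3 lower at an unadjusted p under 0.05 and 0 with DESeq2), and the median log2 fold change was 1.04. Without replicate 3 of tra1Q3 cells at day 3 the number higher fell to 9 of 26 tested. Of the 32, 5 reached 10 counts in tra1Q3 libraries only, and all 5 were called. Among the 17 with a mean of at least 50 counts, 7 were higher and 0 lower. Of the 75 members tested on both days, 11 were higher on both, of which 9 lay in telomeric regions and the others were AAD15 and ADH7. The share of all genes higher on both days was not counted. By day it was 3.31% at day 0 and 16.4% at day 3.

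YPR202W (chrXVI:943032-943896, plus strand), a Y' frame of the right end of chromosome XVI, was called at day 3 and not at day 0. It had 444, 559 and 431 normalized counts in tra1Q3 libraries at day 3 and 108, 116 and 94.4 in TRA1 libraries (log2 fold change 2.27 ± 0.16, SE). At day 0 it had 244, 308 and 229 in tra1Q3 libraries and 137, 184 and 162 in TRA1 libraries (0.69 ± 0.14). YLR466C-B, a short frame of unknown role at the right end of chromosome XII with 100% unique windows, had 131, 111 and 118 in tra1Q3 libraries and 17.6, 24.1 and 27.4 in TRA1 libraries at day 3 (2.48 ± 0.21).

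Most COS genes were higher in tra1Q3 cells at day 3. Of the 9 measured, 7 were called higher and 0 lower (edgeR, with 0 lower at an unadjusted p under 0.05 and with DESeq2), and the median log2 fold change over the family was 1.28. Of all genes tested at day 3, 16.4% were higher and 15.6% lower. At day 0 no COS gene was called in edgeR or DESeq2, although 5 were higher and 1 lower at an unadjusted p under 0.05. Without a size threshold, 4209 of all 6126 genes tested passed even the adjusted p at day 0. The 2 COS genes not called at day 3 were COS4 and COS6. Without replicate 2 of aged TRA1 cells, 5 of 9 were called higher.

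COS5 (chrX:742848-743999, minus strand) had 5597, 5825 and 5455 normalized counts in tra1Q3 libraries at day 3, against 1722, 1300.2 and 1944 in TRA1 libraries (log2 fold change 1.86 ± 0.15, SE). At day 0 it had 1850.5, 1911 and 1743 in tra1Q3 libraries and 1626, 1629.7 and 1725 in TRA1 libraries. COS10 (chrXIV:779916-781040, plus strand) had 971, 1099 and 1089 in tra1Q3 libraries at day 3, against 173, 194 and 159.6 in TRA1 libraries (2.68 ± 0.12, edgeR adjusted p = 3.57e-06). The groups did not overlap at day 3 in either gene. COS6 had the most counts per kb of the COS genes at day 0, without allowance for unequal unique sequence. It had 3561, 3504 and 3599 in tra1Q3 libraries and 4491, 2760.5 and 4849 in TRA1 libraries at day 3, where the genotypes overlapped.

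**Figure D3:**
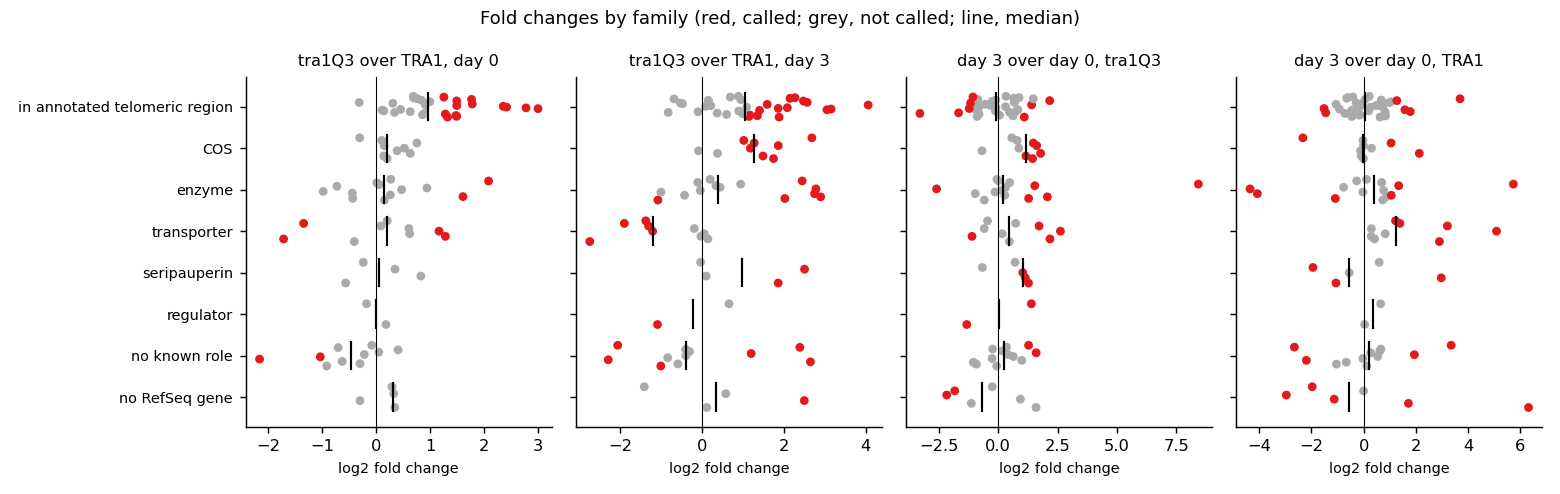
The log2 fold change of each tested member by family, for tra1Q3 over TRA1 at day 0 and day 3 and for day 3 over day 0 in each genotype, with called genes in red, others in grey and a line at each median. COS genes have a median of 1.28 at day 3 between the genotypes, and transporter genes one of -1.21, which is the value of MCH2. The fitted values of genes with groups at or near 0 counts, such as ERR3, are no bounds.

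Of the enzyme genes 5 of 14 were higher and 1 lower at day 3, beside 16.4% higher and 15.6% lower among all genes. IMD2 (chrVIII:554396-555967, plus strand), an IMP dehydrogenase of guanine nucleotide synthesis, had 845, 969 and 813 normalized counts in tra1Q3 libraries and 125, 167 and 117 in TRA1 libraries (log2 fold change 2.78 ± 0.16, SE). IRC7 (chrVI:264204-265226, plus strand), a cysteine beta-lyase, had 1004, 933 and 942 in tra1Q3 libraries and 145, 152 and 161 in TRA1 libraries (2.75 ± 0.10). ADH7 had 3377, 2875 and 2788 in tra1Q3 libraries and 397, 445 and 455 in TRA1 libraries (2.90 ± 0.11). The 3 genes had edgeR adjusted p of 9.19e-06 or less and genotypes that did not overlap. IRC7 shares 122 bases with the coding sequence of YFR056C on the other strand, and strand was not used in counting.

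MAL32, the maltase gene that lies next to MAL31, had 202, 228 and 191 normalized counts in tra1Q3 libraries at day 3 and 58.0, 36.6 and 68.0 in TRA1 libraries (log2 fold change 2.02 ± 0.23, SE). MAL31 had overlapping genotypes at that time, with 3207, 3304 and 3278 in tra1Q3 libraries and 2643, 3874 and 2989.9 in TRA1 libraries. The acid phosphatase gene PHO11 was the enzyme gene called lower, with 52.0, 41.5 and 49.5 in tra1Q3 libraries and 108, 111 and 106 in TRA1 libraries (-1.08 ± 0.16). Only 24.8% of the windows of PHO11 and 33.4% of those of MAL32 were unique. PHO12, also at 24.8%, had a log2 fold change of -0.04 at day 3.

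Transporter genes went the other way at day 3. Of the 9 measured, 5 were called lower and 0 higher (edgeR, with 0 higher at an unadjusted p under 0.05 and with DESeq2), with a median of -1.21. That median is the value of MCH2, which depends on single libraries, as given below. Among all genes 15.6% were lower and 16.4% higher. SEO1 (chrI:7235-9016, minus strand), a permease of the allantoate transporter family, had 288, 277 and 239 normalized counts in tra1Q3 libraries, against 1718, 1819 and 2229.7 in TRA1 libraries (log2 fold change -2.74 ± 0.14, SE, edgeR adjusted p = 5.92e-06). GEX2 had 172, 199 and 208 in tra1Q3 libraries and 581, 1049 and 688 in TRA1 libraries (-1.90 ± 0.23). The arsenite exporter gene ARR3 had 146, 150.4 and 195 in tra1Q3 libraries and 421, 427 and 518 in TRA1 libraries (-1.38 ± 0.16).

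VBA5, a membrane transporter gene, had 696, 826 and 724 normalized counts in tra1Q3 libraries and 1623, 2606 and 1732 in TRA1 libraries (log2 fold change -1.31 ± 0.19, SE). MCH2, a gene related to monocarboxylate permeases, had 1533, 1550.2 and 1667 in tra1Q3 libraries and 2513, 6794 and 2475 in TRA1 libraries (-1.21 ± 0.38, edgeR adjusted p = 0.0241). In MCH2 replicate 2 of aged TRA1 cells was far above the other libraries, and without it the log2 fold change was -0.56, under the size threshold. The call was also lost without replicate 2, 3 or 4 of aged tra1Q3 cells. At day 0 MCH2 was higher in tra1Q3 cells, with 246, 289 and 239.8 in tra1Q3 libraries against 115, 113 and 118 in TRA1 libraries.

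**Figure D4:**
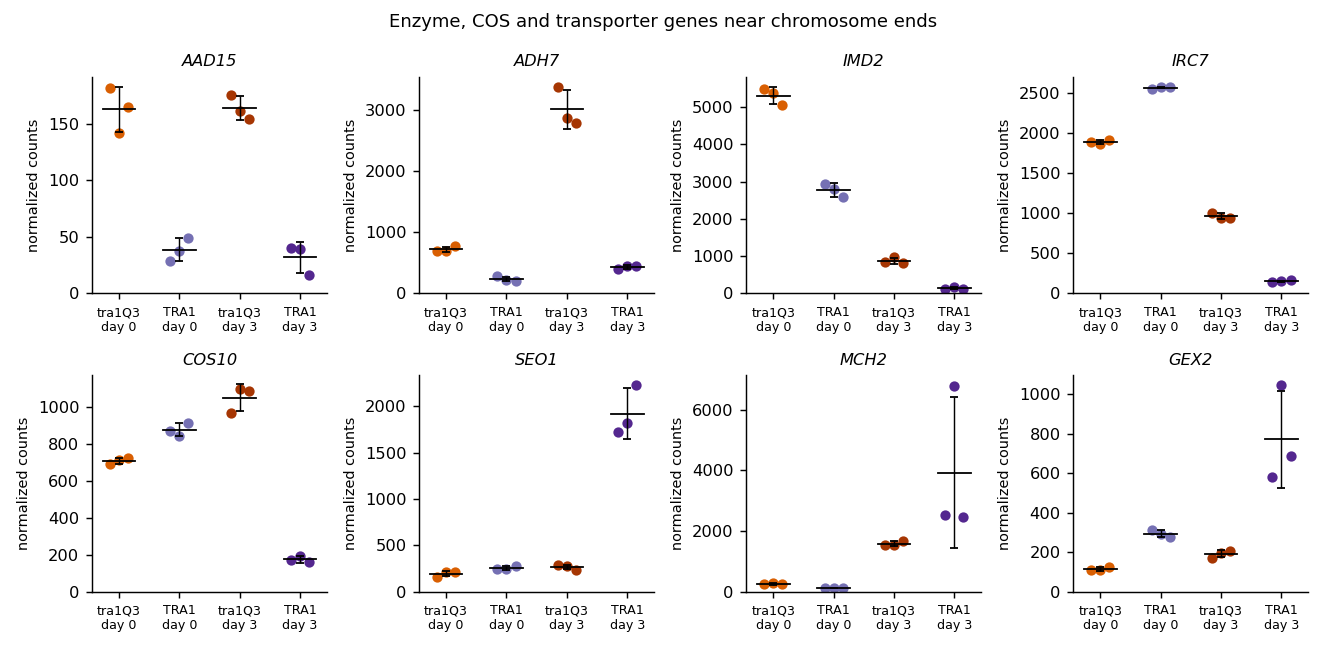
Normalized counts of 8 enzyme, COS and transporter genes by group, with a point for each library, a line at the mean and bars of 1 SD. IMD2, IRC7, COS10 and ADH7 are higher in tra1Q3 than in TRA1 libraries at day 3 without overlap, SEO1 and GEX2 are lower without overlap, and in MCH2 replicate 2 of aged TRA1 cells reaches 6794.

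Among members of unknown function, YEL073C (chrV:7230-7553, minus strand) had 3225, 3484 and 3705 normalized counts in tra1Q3 libraries at day 3, against 523, 798 and 459 in TRA1 libraries (log2 fold change 2.65 ± 0.21, SE). YER188W was lower at day 3 as at day 0, with 85.7, 95.4 and 65.3 in tra1Q3 libraries and 344, 607 and 344 in TRA1 libraries (-2.29 ± 0.28). YOL164W-A, a short frame, had 192, 209 and 183 in tra1Q3 libraries and 781, 1075 and 756 in TRA1 libraries (-2.06 ± 0.16). The genotypes did not overlap in any of the 3. YCR102W-A, which has no RefSeq gene, was also called higher, and the zinc cluster regulator RDS1 was lower, at -1.09 ± 0.12, a call that was lost with the replicate block (-0.99).

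With age, members rose and fell in both genotypes. In tra1Q3 cells 31 of 92 members were called between day 3 and day 0, 21 higher and 10 lower at day 3, whereas 46.1% of all genes tested were called (22.7% higher and 23.4% lower). In TRA1 cells 32 were called, 19 higher and 13 lower, whereas 39.9% of all genes were (20.1% higher and 19.8% lower). The days did not overlap in 64 members in tra1Q3 cells and in 60 in TRA1 cells, beside 89.7% and 80.6% of all genes. Of the 35 in telomeric regions, 3 were higher and 5 lower in tra1Q3 cells, and 4 were higher and 2 lower in TRA1 cells. No test was made of whether these shares differ from those of other genes.

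In tra1Q3 cells, COS genes were among the members that rose. Of 9, 5 were higher at day 3 and 0 lower (edgeR, with 1 lower at an unadjusted p under 0.05 and 0 with DESeq2), against 2 higher and 1 lower in TRA1 cells. Among all genes 22.7% were higher and 23.4% lower in tra1Q3 cells, and 20.1% and 19.8% in TRA1 cells. COS5 rose by 1.62 ± 0.12 (SE) on the log2 scale in tra1Q3 cells and had a value of 0.00 ± 0.11 in TRA1 cells. COS4 rose in both, with 394, 386 and 389 normalized counts at day 3 and 95.7, 123 and 122 at day 0 in tra1Q3 cells (1.78 ± 0.12), and with 334, 294 and 333 at day 3 and 62.9, 78.4 and 78.0 at day 0 in TRA1 cells (2.13 ± 0.13).

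Transporter genes rose with age in TRA1 cells, 5 of 9 being higher at day 3 and 0 lower (edgeR, with 0 lower at an unadjusted p under 0.05 and with DESeq2). In tra1Q3 cells 3 were higher and 1 lower. Among all genes 20.1% were higher and 19.8% lower in TRA1 cells, and 22.7% and 23.4% in tra1Q3 cells. In TRA1 cells MCH2 rose by 5.09 ± 0.38 (SE), VBA5 by 3.21 ± 0.17 and SEO1 by 2.90 ± 0.13 on the log2 scale. In tra1Q3 cells MCH2 rose by 2.62 ± 0.34 and VBA5 by 1.72 ± 0.17, and SEO1 had a value of 0.47, which was not called. MAL31 rose in tra1Q3 cells (2.18 ± 0.12), where its day 0 level was below that of TRA1 cells.

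The decreases with age included IMD2 and YFR056C in both genotypes. IMD2 had 845, 969 and 813 normalized counts at day 3 and 5490.4, 5372 and 5046 at day 0 in tra1Q3 cells, and it had 125, 167 and 117 at day 3 and 2940.2, 2791 and 2582 at day 0 in TRA1 cells. Its log2 change was -2.60 ± 0.11 (SE) in tra1Q3 cells and -4.35 ± 0.13 in TRA1 cells. IRC7 had 145, 152 and 161 at day 3 and 2549, 2569 and 2563 at day 0 in TRA1 cells (-4.07 ± 0.06), whereas in tra1Q3 cells its value was -0.97, just under the size threshold. ERR3, an enolase-related gene, rose with age in both genotypes. It had no count in tra1Q3 libraries at day 0 and averaged 42.8 normalized counts at day 3, which was at least 13.3-fold higher when 3 counts per library are taken as the floor. In TRA1 libraries ERR3 had 1, 0 and 0 raw counts at day 0 and averaged 23.9 normalized counts at day 3.

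The change with age differed between the genotypes for 33 of 92 members, 18 with a higher value in tra1Q3 cells and 15 with a lower one, whereas 31.5% of all genes tested were called (13.6% higher and 17.9% lower). Among COS genes 4 of 9 had a higher change in tra1Q3 cells and 0 a lower one (edgeR, with 1 lower at an unadjusted p under 0.05 and 0 with DESeq2). Among transporter genes 5 of 9 had a lower change and 1, MAL31, a higher one. Of the 35 in telomeric regions 2 had a higher and 3 a lower change (edgeR), and the other 30 did not pass, which does not show that they changed alike. Without replicates 2 and 3 of tra1Q3 cells at day 0 the number called was 28 of 90.

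As shares of all counts, the telomeric-region frames took 0.0335% to 0.0346% of tra1Q3 libraries and 0.0170% to 0.0181% of TRA1 libraries at day 0. At day 3 they took 0.0383% to 0.0426% of tra1Q3 libraries and 0.0235% to 0.0339% of TRA1 libraries. The COS genes took 0.0883% to 0.0909% of tra1Q3 libraries and 0.0424% to 0.0605% of TRA1 libraries at day 3. The genotypes did not overlap in any of these shares.

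**Figure D5:**
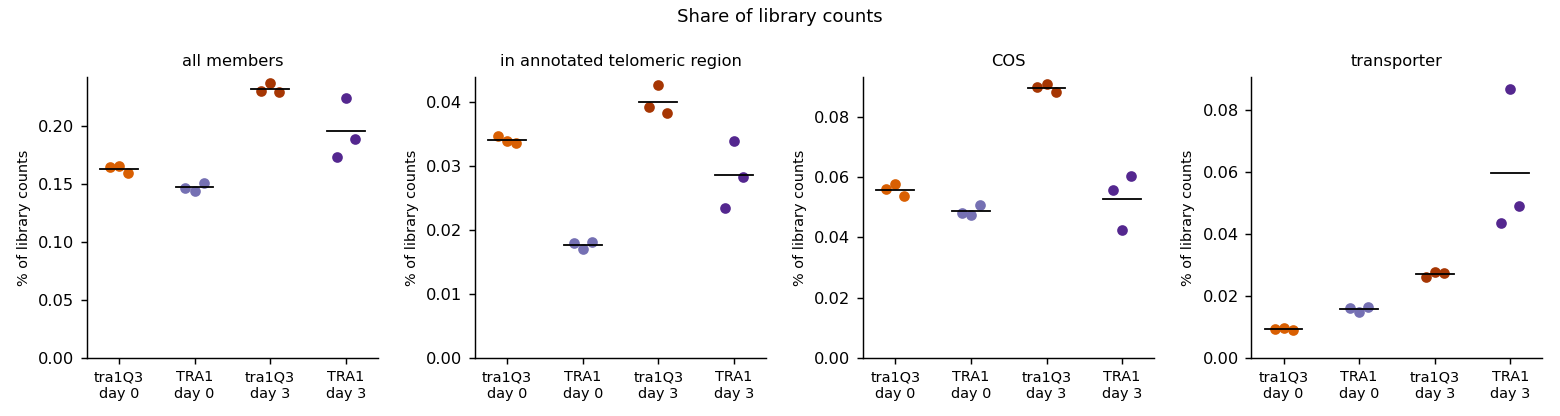
Share of library counts (%) held by all members, by reading frames in annotated telomeric regions, by COS genes and by transporter genes, with a point for each library and a line at each group mean. Telomeric-region frames take 0.0335% to 0.0346% of tra1Q3 libraries and 0.0170% to 0.0181% of TRA1 libraries at day 0.

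YFR057W at the right end of chromosome VI, a gene used as a reporter of telomere position effect, was below the filter. It had 4, 3 and 15 raw counts in tra1Q3 libraries and 0, 1 and 0 in TRA1 libraries at day 0, and 5, 3 and 5 in tra1Q3 libraries and 1, 0 and 0 in TRA1 libraries at day 3. At these counts no fold change is given. No gene of a list of 24 silencing factors was called at day 0 (edgeR and DESeq2). At an unadjusted p under 0.05, 10 were higher and 6 lower in tra1Q3 cells. Without a size threshold, 4209 of all 6126 genes tested at day 0 passed even the adjusted p, so these factors did not stand out. At day 3, 4 of the factors were higher (RAP1, HDA1, CYC8 and HST1) and 3 lower (SIR3, RIF2 and YKU70), so that 7 of 24 were called beside 32% of all genes, a share near the background. SIR3, which spreads along silenced chromatin, had 716, 580.3 and 600.2 normalized counts in tra1Q3 libraries at day 3 and 1917, 1793 and 2071 in TRA1 libraries (log2 fold change -1.51). YKU70, which binds chromosome ends, had 483, 549 and 507 in tra1Q3 libraries and 1592, 1260 and 1886 in TRA1 libraries (-1.52). HST1, a deacetylase related to Sir2, was higher by 1.60.

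Seripauperins were mostly below the filter. At day 3, 2 of 4 tested were higher in tra1Q3 cells, beside 16.4% of all genes. PAU8 had 101, 71.8 and 74.8 normalized counts in tra1Q3 libraries and 28.6, 15.4 and 28.3 in TRA1 libraries (log2 fold change 1.86). PAU3 had 54.0, 42.7 and 45.3 in tra1Q3 libraries and 8.40, 8.67 and 9.44 in TRA1 libraries (2.51). Of 6 anaerobic regulators, UPC2 (1.63) and SUT1 (3.11) were higher and the repressor ROX1 (-1.27) lower in tra1Q3 cells at day 3, where 32% of all genes were called, and none was called at day 0. Lists this short say little against that background.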

How the data were processed

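Poly dT-enriched libraries of W303A cells (12) were analysed. Day 0 and day 3 libraries may come from the same cultures. The authors aligned reads with STAR 2.5.4b to S288C R64, kept unique matches and deposited raw counts per coding sequence from featureCounts 1.6.0. Pairs and single reads (12.5% to 18.1%) were added, and an unnamed entry (0.0851% of counts) was left out. The members and gene lists were chosen with earlier results of these data known. Genes with at least 10 counts in 3 of the libraries compared were tested with edgeR 4.0.16 (TMM, glmQLFit, glmQLFTest), with Benjamini-Hochberg adjustment over all genes. Genotypes were compared within a day. Changes with age and their difference came from 1 fit of 12 libraries. Where replicates are not separate cultures, p-values measure technical spread only. Normalized counts are TMM-scaled to the mean library size. Unique windows and sequences were read from RefSeq R64, in which 111 of 166 members were found, all at the same coordinates. Scripts were tested on simulated data. Alternatives were DESeq2 1.42.0, other scalings, filters, thresholds, member limits, samples and a replicate block. Named genes were the 8 largest called changes in each direction with libraries that do not overlap and at least 50 normalized counts on average in the higher group, plus abundant members, the limit, a telomere reporter and fixed lists.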

Additional observations from a re-analysis of the deposited data

Results flagged for a closer look

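The change with age differed between tra1Q3 and TRA1 cells for 33 of 92 members in a test of the difference itself (edgeR, 3 libraries per group). The 16 given here are the 8 largest in each direction that averaged at least 50 normalized counts in their highest group. Values are the log2 change with age in tra1Q3 cells minus that in TRA1 cells. Among the genes with a higher change in tra1Q3 cells were YEL073C (3.18), IRC7 (3.096), YNR075C-A (3.00) and COS10 (2.89). MAL32 (2.36), PAU8 (2.33), YCR102W-A (2.06) and MAL31 (1.76) followed. IRC7 changed by -0.97 in tra1Q3 cells and by -4.07 in TRA1 cells, and COS10 by 0.57 in tra1Q3 cells and -2.32 in TRA1 cells. A lower change in tra1Q3 cells was found for MCH2 (-2.47), SEO1 (-2.43), YOL164W-A (-2.08), ARR3 (-1.67) and VBA5 (-1.49), and for RDS1 (-1.37), PHO11 (-1.32) and YER188C-A (-1.06). The value of MCH2 was -1.80 without replicate 2 of aged TRA1 cells. YER188C-A had an edgeR adjusted p of 0.0336 and was not called under 9 of the alternatives.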

How the results depend on the processing

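Counts of called members are given in the order tra1Q3 against TRA1 at day 0 (21) and day 3 (43), change with age in tra1Q3 cells (31) and in TRA1 cells (32), and the difference of these changes (33). Replicate numbers showed no pairing of the libraries, since no correlation of same-numbered deviations was over 0.1 (-0.114 to 0.00842). Deviations from means of 3 libraries cannot exclude that same-numbered libraries share a culture. With the replicate block the counts were 21, 42, 29, 32 and 32, and with DESeq2 21, 43, 33, 32 and 32. With no size threshold they were 55 of 79 at day 0, where 4209 of all 6126 genes tested passed, and 59, 52 and 51 for the 3 last. At a log2 fold change over 2 they were 6, 21, 8, 15 and 12, with 6 differences over 2.5. Within 5 kb of an end they were 11, 19, 12, 13 and 15, and within 20 kb 36, 91, 89, 99 and 80. Members with at least 80% unique windows gave 8, 25, 14, 16 and 19. The 17 higher at day 0 became 27 with no filter, 39 with no size threshold, 5 over 2, 10 within 5 kb, 26 within 20 kb, 5 with unique windows and 10 without overlapping coding sequences. The 4 lower became 16 with no size threshold, 1 over 2, 1 within 5 kb and 10 within 20 kb. The 33 higher at day 3 became 18 over 2, 15 within 5 kb, 53 within 20 kb and 18 with unique windows, and the 10 lower became 3, 4 and 38 for the first 3 of these. Over 2, telomeric-region genes higher were 4 at day 0 (23 with no size threshold) and 8 at day 3, COS genes 1 and transporter genes 1. Leaving out each replicate in turn gave 19 to 23, 35 to 44, 29 to 32, 29 to 33 and 29 to 34 calls. It gave 15 to 19 higher and 3 to 4 lower at day 0, 27 to 33 higher and 8 to 11 lower at day 3, 11 to 14 telomeric-region genes at day 0 and 9 to 16 at day 3, 5 to 7 COS genes and 4 to 5 transporter genes. The settings with fewer members or a larger size threshold count fewer genes by construction. For other changes the cause was not tested. Scaling by library totals moved the day 3 median of all genes to -0.31 and gave 28 members higher and 13 lower. For 73 values of named genes, 1113 alternatives were run. None reversed, and 24 kept the direction without the call, in MAL32 and PAU8 (change with age in TRA1 cells, 3 alternatives each), YPR203W (change with age in tra1Q3 cells, 4), YER188C-A (difference of these changes, 9), MCH2 (day 3, 4) and RDS1 (day 3, -0.99 with the replicate block). Depth limits the genes of low counts, and repeated sequence those with few unique windows.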
